A study of Mus musculus with 6 samples.

Results

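The proteasome is the large protease that degrades proteins marked with ubiquitin, and its subunits and assembly factors are the genes described here. They were taken by a naming rule, as protein-coding genes whose GENCODE M21 symbol starts with Psma to Psmg followed by a digit, plus Pomp. This rule was set with earlier results of these data known, so the percentages below are descriptions. The rule finds 51 genes among the 43346 genes of the deposited count table, of which 21474 are protein-coding. By their names 19 belong to the 20S core particle (Psma and Psmb), 21 to the 19S regulatory particle (Psmc and Psmd), and 11 are activators, the inhibitor and assembly factors (Psme, Psmf, Psmg and Pomp).

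RNA was sequenced from primary embryonic fibroblasts of C57BL/6 mice (MEFs), at their 9th passage, after 24 h with 3 µM erastin (3 libraries) or with its solvent DMSO (3 libraries). Erastin stops the uptake of cystine by its antiporter and is used to start ferroptosis, in which cells die as iron oxidises their membrane lipids. The medium of all cultures held fetal bovine serum and 2-mercaptoethanol, a thiol. The design text says that the experiment was done in triplicate, but not whether the replicates came from separate embryos or cultures, so the p-values below measure only the spread between these libraries, which may be technical.

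The 20S core is a barrel of stacked rings, with alpha subunits forming the outer rings and the gate, and beta subunits the inner rings. Psmb5, Psmb6 and Psmb7 carry the catalytic sites, and in cells exposed to interferon they are replaced by Psmb8, Psmb9 and Psmb10 in a form called the immunoproteasome. The 19S particle caps the barrel: its ATPases unfold the substrate and its non-ATPase subunits recognise and remove the ubiquitin chain. When proteasome activity is low, the transcription factor encoded by Nfe2l1 is known to raise the transcription of many subunits together, and the oxidative stress factor encoded by Nfe2l2 is known to bind antioxidant response elements near some of them.

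The libraries held 13333911 to 18505571 counts with DMSO and 16800789 to 20509970 with erastin. Levels are given in CPM, which is the count of a gene scaled to a fixed library size with TMM factors, and 3 counts correspond to 0.140 to 0.234 CPM depending on the library. DMSO replicate 3 stood apart from the other DMSO libraries along the second principal component, which held 14.5% of the variance, while the first (60.4%) separated the treatments. Of 10 fibroblast markers, all were detected and 8 passed the test as lower with erastin, with a summed level of 35433 to 38496 CPM with DMSO and 25455 to 26901 CPM with erastin. The 4 epithelial markers summed to at most 0.934 CPM in any library. Of 4 endothelial markers, Kdr and Tek were higher with erastin (sum of the list 4.66 to 7.10 CPM with DMSO and 13.2 to 16.4 CPM with erastin), while Pecam1 and Cdh5 were at most 0.778 CPM. The 6 leukocyte markers summed to 10.8 to 14.8 CPM with DMSO and 9.28 to 16.9 CPM with erastin. The 4 neural markers, of which Tubb3 made up nearly all, summed to 56.4 to 81.9 CPM with DMSO and 37.0 to 45.8 CPM with erastin. Whether these marker shifts have a part in the proteasome values was not tested. In RNA from whole cultures, fewer cells of a type and less RNA per cell cannot be told apart.

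With erastin the RNA rose for 10 of the 17 19S subunits that match the naming rule, among them Psmd11, Psmc6, Psmd8 and Psmc1. None of the 17 passed as lower. Adrm1 and Sem1, 19S subunits whose names fall outside the rule, did not pass (edgeR adjusted p = 0.0527 and 0.310). Of the 14 constitutive 20S subunits 2 rose and 1 fell, and the inducible catalytic subunit Psmb10 fell. Of the 51 genes, 49 had enough counts to be tested, and 18 of them passed an adjusted p of 0.05 in edgeR's quasi-likelihood test with Benjamini-Hochberg adjustment over 14000 genes: 15 rose and 3 fell. Across all 14000 genes tested, 43.1% passed, 21.6% as higher and 21.5% as lower. In the same terms 36.7% of the 49 genes passed, 30.6% as higher and 6.12% as lower, and of the 21 19S genes 52.4% passed as higher. The 15 that rose comprised 11 of the 21 19S genes, 2 of the 17 tested 20S genes (Psma1 and Psma6) and 2 of the 11 others (Psme3 and Psmf1). The 3 that fell were Psmb6 and Psmb10 of the 20S and Psme2, an activator. None of the 21 19S genes passed as lower by edgeR's test, although 4 were lower at an unadjusted p under 0.05. DESeq2 called 2 of the 21 as lower, Psmc3 and Psmc3ip, and Psmc3ip matches the rule without being a proteasome gene. Among the 17 19S subunits 2 were lower at an unadjusted p under 0.05, and DESeq2 called 1. Leaving out 1 library at a time gave 12 to 18 higher and 1 to 5 lower genes; the count of lower genes was 1 without erastin replicate 1 and 5 without DMSO replicate 3. The 2 higher 20S genes became 6 with the offset for GC content and length, 5 with total-count scaling, and 1 with upper-quartile scaling or without DMSO replicate 3, erastin replicate 1 or erastin replicate 2. The 2 lower 20S genes became 1 with total-count scaling, without the filter on low counts, with the replicate block, or without DMSO replicate 1, DMSO replicate 2, erastin replicate 1 or erastin replicate 3. The 19S held 3 lower genes with upper-quartile scaling, 2 with the offset or after thinning, and 1 without the filter, DMSO replicate 1, DMSO replicate 3 or erastin replicate 3. The 2 higher genes among the others became 4 without DMSO replicate 2, and the 1 lower gene there became 0 without erastin replicate 1 and 2 without DMSO replicate 3 or erastin replicate 3. Without DMSO replicate 3 there were 13 higher genes, 10 of them 19S.

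The median log2 fold change was 0.17 over the 49 tested genes, 0.30 over the 21 19S genes, 0.0027 over the 17 20S genes and 0.029 over the 11 others, beside -0.0014 over all genes tested. Erastin libraries all lay above all DMSO libraries for 19 of the 49 genes and all below for 9, and the groups overlapped for 21. Over all genes tested the first of these orders held for 26.7% and the second for 25.9%. A fitted fold of 1.5 or more was reached by 7 of the 49 genes (14.3%), near the 16.6% of all genes tested. No test was made of the difference between the 2 particles.

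**Figure D1:**
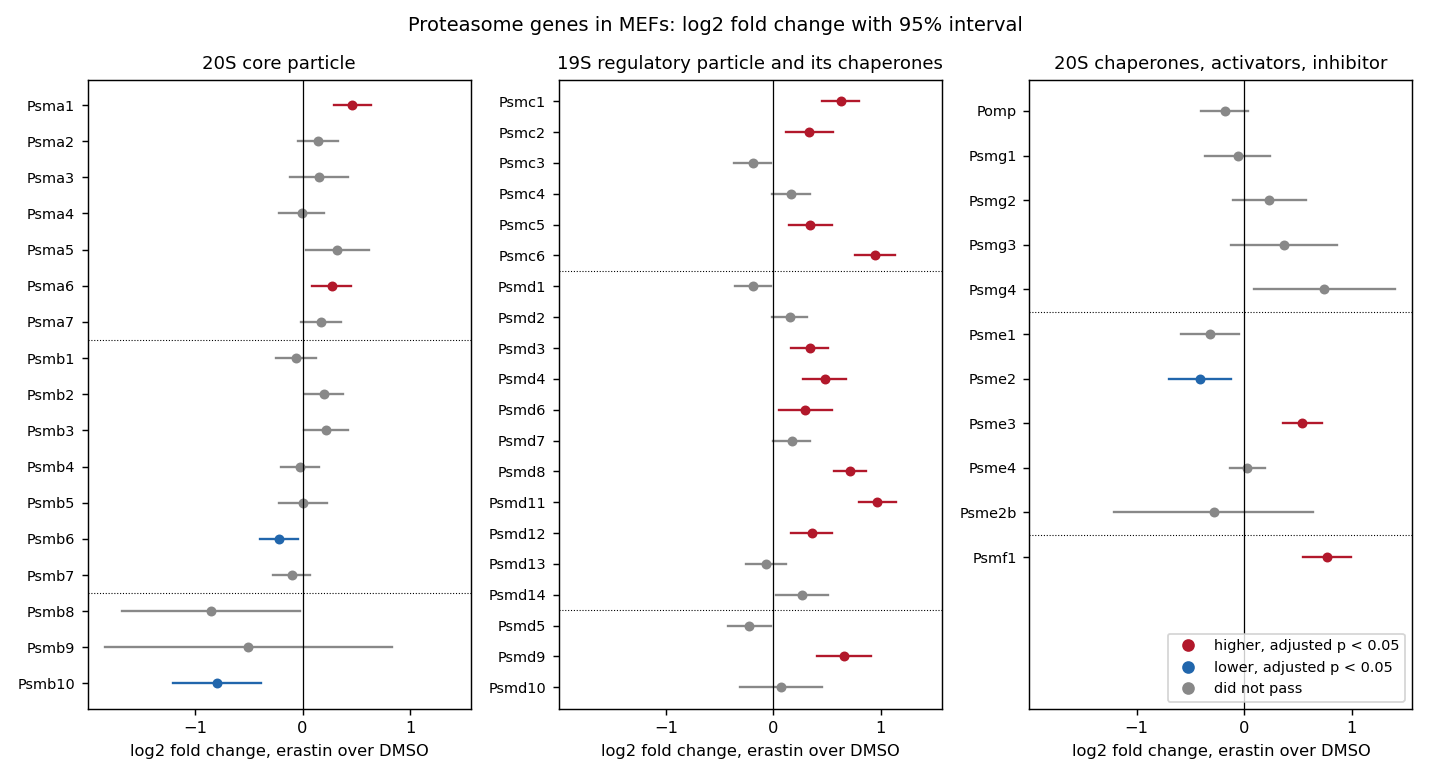
Log2 fold change (erastin over DMSO) with its 95% interval for the 48 tested genes with a proteasome role, grouped by role, with called genes in colour. The 19S ATPases and non-ATPase subunits lie mostly to the right of 0, up to 0.97 for Psmd11, and the inducible catalytic subunits lie to the left, down to -0.85 for Psmb8.

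The genes' share of all counts was 0.346% to 0.376% with DMSO and 0.446% to 0.457% with erastin, so the 2 ranges did not overlap. Summed CPM of the 17 19S subunits, without the assembly chaperones and Psmc3ip, ran from 1925 to 2031 with DMSO and from 2525 to 2612 with erastin. For the 14 constitutive 20S subunits the sums were closer, 1123 to 1205 CPM with DMSO and 1224 to 1254 CPM with erastin. These sums are set mostly by the abundant members and carry no test.

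The promoter windows of 6 genes that changed are shown next, because antioxidant response elements are a known entry point for Nfe2l2 at such genes. The 6 are no even sample of the changed genes, since they include every called gene whose window holds the core of that element. Psmb5 and Psme4 hold it too, did not pass and are not shown. Whether the element has a part in any change was not tested. Each is the RefSeq window (assembly GRCm38.p6) from 250 bases before the annotated start to 50 bases after it, 300 bases in all, 5′ to 3′ on the gene's strand. Capitals mark a match, on either strand, to the core of the antioxidant response element, TGACNNNGC, or to the CCAAT box, CCAAT, the site of the factor NF-Y. Psmd11 (chr11:80428365-80428664, plus strand) had the smallest p of the 19S genes and holds neither motif. Psmc6 (chr14:45329574-45329873, plus strand), Psmd12 (chr11:107479278-107479577, plus strand) and Psmd9 (chr5:123227940-123228239, plus strand) are the 3 19S genes that rose and have the antioxidant core. Psmb6 (chr11:70525107-70525406, plus strand) fell and has it too, and Psma1 (chr7:114276067-114276366, minus strand) rose and has 2 CCAAT boxes.
Psmd11: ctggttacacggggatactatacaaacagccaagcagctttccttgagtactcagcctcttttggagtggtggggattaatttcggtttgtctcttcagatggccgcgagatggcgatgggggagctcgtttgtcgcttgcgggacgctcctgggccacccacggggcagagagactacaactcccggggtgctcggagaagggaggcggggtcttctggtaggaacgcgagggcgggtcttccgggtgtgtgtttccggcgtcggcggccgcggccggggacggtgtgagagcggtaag
Psmc6: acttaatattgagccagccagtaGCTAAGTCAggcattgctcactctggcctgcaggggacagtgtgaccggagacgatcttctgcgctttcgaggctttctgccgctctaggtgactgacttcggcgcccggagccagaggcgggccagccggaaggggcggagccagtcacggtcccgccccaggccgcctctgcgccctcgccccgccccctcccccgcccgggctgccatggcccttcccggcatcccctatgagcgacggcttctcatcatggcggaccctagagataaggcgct
Psmd12: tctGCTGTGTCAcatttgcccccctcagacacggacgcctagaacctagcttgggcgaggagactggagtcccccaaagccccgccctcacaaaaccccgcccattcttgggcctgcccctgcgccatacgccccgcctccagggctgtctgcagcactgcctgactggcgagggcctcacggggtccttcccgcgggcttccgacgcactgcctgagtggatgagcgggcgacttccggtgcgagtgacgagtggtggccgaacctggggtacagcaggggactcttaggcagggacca
Psmd9: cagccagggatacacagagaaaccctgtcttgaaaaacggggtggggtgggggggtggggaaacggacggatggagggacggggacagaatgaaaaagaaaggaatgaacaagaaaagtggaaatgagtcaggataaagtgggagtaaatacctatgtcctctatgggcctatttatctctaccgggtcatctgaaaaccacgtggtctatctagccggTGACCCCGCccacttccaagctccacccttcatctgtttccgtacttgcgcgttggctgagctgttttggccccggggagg
Psmb6: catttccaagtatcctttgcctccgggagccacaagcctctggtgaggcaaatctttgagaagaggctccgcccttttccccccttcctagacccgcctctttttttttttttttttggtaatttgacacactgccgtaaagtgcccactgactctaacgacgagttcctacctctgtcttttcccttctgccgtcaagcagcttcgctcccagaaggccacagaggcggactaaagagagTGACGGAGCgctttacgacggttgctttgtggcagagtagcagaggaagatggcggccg
Psma1: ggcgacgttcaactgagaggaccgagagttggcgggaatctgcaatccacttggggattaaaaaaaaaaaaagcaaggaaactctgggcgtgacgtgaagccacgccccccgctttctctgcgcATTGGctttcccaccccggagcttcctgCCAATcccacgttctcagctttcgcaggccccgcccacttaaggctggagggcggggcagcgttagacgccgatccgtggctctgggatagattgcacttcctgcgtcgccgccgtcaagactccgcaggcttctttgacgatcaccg

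A window was in the RefSeq table for 43 of the 51 genes. The antioxidant core was in 6 of these 43 (14.0%), beside 14.0% of all 27025 genes with a window, and the CCAAT box in 15 of the 43 (34.9%), beside 41.1% of all genes. The 6 were Psmb5, Psmb6, Psmc6, Psmd12, Psmd9 and Psme4. In Psme4, Psmb6, Psmd9 and Psmb5 the match began 7, 9, 31 and 47 bases before the annotated start, and in Psmc6 and Psmd12 it began 227 and 247 bases before it. Among the 18 19S genes with a window the core was in 3 (16.7%), near the share of all genes. These were 3 of the 10 that rose and 0 of the 8 that did not pass. Of the 3 proteasome genes that fell, 1 held it. The split by call was made with the calls known, and a link between the core and the changes was not tested. A match describes letters, not a bound site, and a window without one says only that these letters are not in it. For Psmd9 the GENCODE gene (chr5:123169413-123250131) starts well upstream of the RefSeq start used for the window.

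The 6 19S ATPases, which form the ring that unfolds substrates and opens the gate of the core, held 4 genes that rose. None passed as lower by edgeR, although 1 (Psmc3) was lower at an unadjusted p under 0.05 and was called by DESeq2. For 5 of the 6 every erastin library lay above every DMSO library. Of all genes tested, 26.7% had this order and 21.6% passed as higher. Psmc6 (gene ENSMUSG00000021832.7, chr14:45329788-45349705) had 68.6, 81.6 and 69.2 CPM in DMSO replicates 1 to 3 and 143, 140.2 and 139 CPM in erastin replicates 1 to 3. Every erastin library was far above every DMSO library, and within each group the values were close together. The log2 fold change was 0.94 (SE 0.09, adjusted p = 7.49e-07 by edgeR), a fold of 1.92. Psmc1 (chr12:100110154-100123405) had 94.8, 106 and 101 CPM with DMSO and 149.7, 165 and 151 CPM with erastin, again without overlap. It rose by 0.63 on the log2 scale (SE 0.08, adjusted p = 1.92e-05 by edgeR).

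Psmc5 and Psmc2 rose less, by 0.35 (SE 0.09, edgeR adjusted p = 0.00825) and 0.33 (SE 0.10, edgeR adjusted p = 0.0156) on the log2 scale. The call for Psmc2 was lost without DMSO replicate 3 (edgeR adjusted p = 0.0518), without erastin replicate 1 (0.0528) and with an offset for GC content and length (0.0756). Psmc4 did not pass: it had 115, 113 and 117 CPM with DMSO and 118, 137 and 132 CPM with erastin, and the 95% interval of its log2 change ran from -0.01 to 0.34. It passed as higher with total-count scaling (edgeR adjusted p = 0.0341) and with the offset (0.0183). Psmc3 was the only ATPase with all erastin libraries below the DMSO libraries, with 181, 171 and 161 CPM against 141, 147 and 161 CPM. Its highest erastin value and its lowest DMSO value were nearly equal, and its log2 change of -0.19 (SE 0.08) did not pass (edgeR adjusted p = 0.0700). It passed with upper-quartile scaling (edgeR adjusted p = 0.0244), with DESeq2 (0.0496), and without DMSO replicate 3 (0.0371) or erastin replicate 3 (0.0342).

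Among the 11 non-ATPase subunits of the 19S that match the rule, which hold ubiquitin receptors, the deubiquitinase and the scaffold, 6 rose. Of all genes tested, 21.6% passed as higher. None passed as lower by edgeR or DESeq2, and 1 (Psmd1) was lower at an unadjusted p under 0.05. The 6 were Psmd11, Psmd8, Psmd4, Psmd12, Psmd3 and Psmd6, with log2 fold changes between 0.30 and 0.97. Psmd11 (gene ENSMUSG00000017428.12, chr11:80428615-80473248), a scaffold subunit of the lid, had 95.8, 90.2 and 86.6 CPM with DMSO and 169, 190.1 and 173 CPM with erastin. All erastin libraries were well above all DMSO libraries. Its log2 fold change of 0.97 (SE 0.08, adjusted p = 2.78e-07 by edgeR) was the largest rise among the 49 genes tested, at a fold of 1.95. Psmd8 (gene ENSMUSG00000030591.12, chr7:29174188-29180701), another lid subunit, had 323, 290.3 and 301 CPM with DMSO and 493, 523 and 485 CPM with erastin, and rose by 0.71 on the log2 scale (SE 0.07, adjusted p = 1.31e-06 by edgeR).

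Psmd4, a subunit that binds ubiquitin chains, had 92.0, 101 and 80.2 CPM with DMSO and 128, 133 and 120.2 CPM with erastin. DMSO replicate 3 was the lowest library, the groups did not overlap, and the gene had a log2 fold change of 0.48 (edgeR adjusted p = 0.000747, SE 0.09). Psmd14, the deubiquitinase that cuts the chain from the substrate, had 49.0, 63.7 and 63.8 CPM with DMSO and 73.7, 63.2 and 75.7 CPM with erastin. Erastin replicate 2 lay within the DMSO range, and the log2 change of 0.27 (95% interval 0.02 to 0.51) did not pass (edgeR adjusted p = 0.0709). It passed with total-count scaling (edgeR adjusted p = 0.0277), without the filter (0.0309), and without DMSO replicate 3 (0.0462) or erastin replicate 2 (0.0423).

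Psmd12 and Psmd3, lid subunits, rose by 0.36 (SE 0.09, edgeR adjusted p = 0.00440) and 0.34 (SE 0.08, edgeR adjusted p = 0.00361) on the log2 scale. Psmd6 passed narrowly, at 0.30 (SE 0.11, edgeR adjusted p = 0.0484), and its groups overlapped: 85.5, 89.1 and 68.3 CPM with DMSO and 109, 85.0 and 104 CPM with erastin. That call was lost with upper-quartile scaling (edgeR adjusted p = 0.102) and without DMSO replicate 1 (0.0647), DMSO replicate 3 (0.182), erastin replicate 1 (0.215) or erastin replicate 3 (0.113). The weakest evidence of a change in this group was for Psmd13, a lid subunit, with 105, 96.6 and 99.6 CPM with DMSO, 88.8, 94.1 and 104 CPM with erastin and a 95% interval of the log2 change from -0.25 to 0.12. Of the base scaffold subunits, Psmd2 had a log2 change of 0.15 (edgeR adjusted p = 0.120) and Psmd1 of -0.19 (edgeR adjusted p = 0.0695), and Psmd7, the partner of Psmd14, had 0.17 (edgeR adjusted p = 0.102). Psmd2 and Psmd7 passed as higher with total-count scaling (edgeR adjusted p = 0.0357 and 0.0369), Psmd7 also with the offset for GC content and length (0.0330), and Psmd1 as lower with upper-quartile scaling (0.0234) and with the offset (0.0321).

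**Figure D2:**
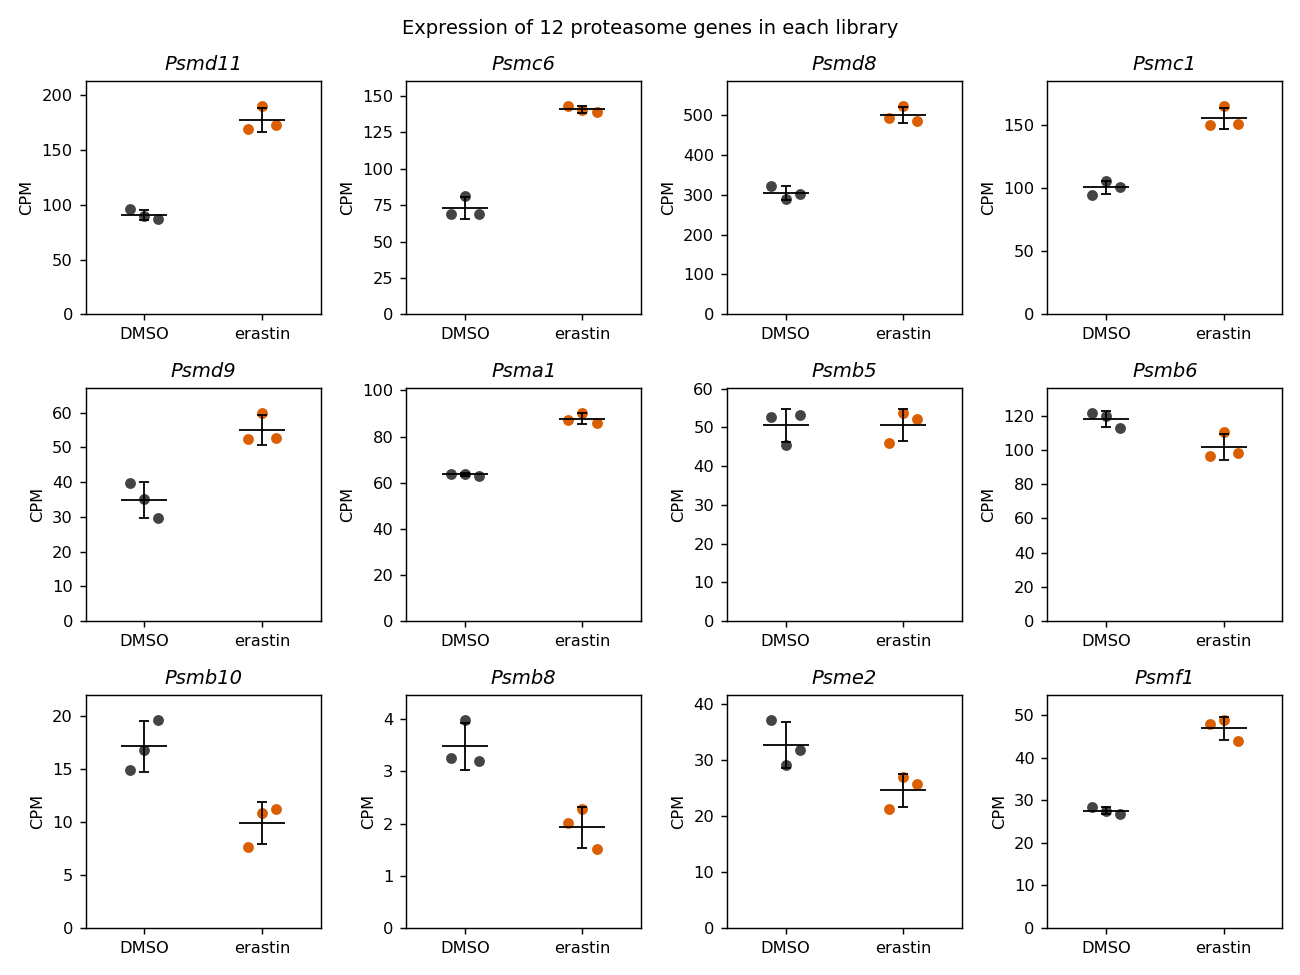
CPM in each of the 6 libraries for 12 proteasome genes, one panel per gene with its own axis starting at 0; points are libraries, wide bars are group means and whiskers are 1 SD (n = 3). Psmd11, Psmc6, Psmd8, Psmc1 and Psmf1 show erastin libraries well above the DMSO libraries, Psmb10 shows them below, and Psmb5 shows groups that overlap.

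In the 20S core 4 of 17 tested genes passed (23.5%), beside 43.1% of all genes tested, 21.6% as higher and 21.5% as lower. Of 7 tested alpha subunits 2 rose and none passed as lower (0 also by DESeq2 and at an unadjusted p under 0.05). Psma1 (gene ENSMUSG00000030751.13, chr7:114264606-114276118) had 63.8, 64.0 and 63.0 CPM with DMSO and 87.1, 90.3 and 85.9 CPM with erastin. The DMSO libraries were nearly equal and all erastin libraries lay above them, with a log2 fold change of 0.47 (SE 0.08, adjusted p = 0.000308 by edgeR). Psma6 had 87.0, 87.6 and 76.0 CPM with DMSO and 104, 101 and 97.2 CPM with erastin, also without overlap, and rose by 0.27 on the log2 scale (SE 0.09, adjusted p = 0.0198 by edgeR). The Psma6 call was lost with upper-quartile scaling (edgeR adjusted p = 0.0577) and without DMSO replicate 3 (0.0734), erastin replicate 1 (0.0877) or erastin replicate 2 (0.0503). Psma4 had 63.8, 67.5 and 59.5 CPM with DMSO and 66.0, 55.7 and 68.0 CPM with erastin, with overlapping groups and a 95% interval of the log2 change from -0.22 to 0.20. The other 4 tested alpha subunits, Psma2, Psma3, Psma5 and Psma7, had log2 changes of 0.14, 0.16, 0.32 and 0.17, and none of them passed by edgeR with TMM scaling and the count filter. Psma5 passed with total-count scaling (edgeR adjusted p = 0.0334), without the filter (0.0310), with the replicate block (0.0473) and with the offset for GC content and length (0.0270). It also passed without DMSO replicate 2, at 0.50 (edgeR adjusted p = 0.00877). Psma7 passed with the offset, at 0.36 (edgeR adjusted p = 0.00313).

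Psma8, the alpha subunit of the testis form of the proteasome, had 5 to 17 counts per library and was not tested.

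Of the 7 constitutive beta subunits 1 fell and none passed as higher by edgeR or DESeq2. Over all genes tested, 21.5% passed as lower and 21.6% as higher by edgeR. At an unadjusted p under 0.05, 2 of the 7 (Psmb2 and Psmb3) were higher. The 3 that carry the active sites were near their DMSO level or below it. Psmb5, the chymotrypsin-like site, had 52.7, 45.6 and 53.3 CPM with DMSO and 45.9, 53.8 and 52.1 CPM with erastin. The groups overlapped, and the 95% interval of the log2 change was -0.22 to 0.22. Psmb6, the caspase-like site, had 122, 119.7 and 113 CPM with DMSO and 96.5, 110.3 and 98.0 CPM with erastin. All erastin libraries were lower, and the gene fell by 0.22 on the log2 scale (SE 0.08), just past the threshold (adjusted p = 0.0490 by edgeR). That call was lost with total-count scaling (edgeR adjusted p = 0.167), without the filter on low counts (0.124), with the replicate block (0.0612), with the offset for GC content and length (0.258), and without DMSO replicate 1 (0.123), DMSO replicate 2 (0.131), erastin replicate 1 (0.188) or erastin replicate 3 (0.119).

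Psmb7, the trypsin-like site, had 98.4, 92.1 and 92.2 CPM with DMSO and 87.0, 86.1 and 90.8 CPM with erastin. The erastin libraries were all slightly lower, and the log2 change of -0.10 (95% interval -0.27 to 0.07) did not pass. Psmb2, a structural beta subunit, had 94.7, 88.0 and 81.5 CPM with DMSO and 103, 102 and 97.6 CPM with erastin. It was higher in all erastin libraries but at 0.20 on the log2 scale (SE 0.08) missed the threshold (edgeR adjusted p = 0.0710), which it passed with total-count scaling (0.0301), with the offset for GC content and length (0.00793) and without DMSO replicate 1 (0.0439). Psmb1, Psmb3 and Psmb4 had log2 changes of -0.06, 0.22 and -0.02 and did not pass. Psmb3 passed as higher with total-count scaling (edgeR adjusted p = 0.0266) and with the offset (0.0256), and Psmb7 passed as lower with the offset, at -0.24 (0.0268).

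The interferon-inducible catalytic subunits were rare in these fibroblasts, and 1 of the 3 fell, beside 21.5% of all genes tested that passed as lower. Psmb10 (gene ENSMUSG00000031897.8, chr8:105935735-105938444), the inducible replacement of Psmb7, had 15.0, 16.9 and 19.7 CPM with DMSO and 7.68, 10.8 and 11.3 CPM with erastin, from 165 to 304 counts per library. Every erastin library was below every DMSO library, and the gene fell by 0.79 on the log2 scale (SE 0.19, adjusted p = 0.00376 by edgeR). Psmb8, which replaces Psmb5, had 3.25, 3.99 and 3.19 CPM with DMSO and 2.00, 2.27 and 1.504 CPM with erastin, on 29 to 72 counts. Its groups did not overlap either, but the log2 change of -0.85 (95% interval -1.68 to -0.03) did not pass (edgeR adjusted p = 0.0897). Psmb9, which replaces Psmb6, had 1.06, 1.39 and 0.623 CPM with DMSO and 0.978, 0.778 and 0.415 CPM with erastin, on 8 to 25 counts. The groups overlapped, and the interval of its log2 change (-1.84 to 0.83) is too wide to tell a rise from a fall. None of the 3 was higher by edgeR, by DESeq2 or at an unadjusted p under 0.05. Psmb11, the thymus-specific catalytic subunit, had 0 counts in all DMSO libraries and at most 1 in an erastin library.

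As a share of each catalytic pair, in CPM per kb of transcript, Psmb10 made up 11.9% to 15.9% of Psmb10 plus Psmb7 with DMSO and 7.25% to 10.0% with erastin. Psmb8 was 3.20% to 4.61% of Psmb8 plus Psmb5 with DMSO and 1.57% to 2.35% with erastin. Psmb9 was 0.325% to 0.679% of its pair with DMSO and 0.249% to 0.595% with erastin. All 3 inducible subunits together were 4.58% to 5.87% of the 6 catalytic genes with DMSO and 3.07% to 3.65% with erastin. The ranges did not overlap for Psmb8, Psmb10 or the sum, and they overlapped for Psmb9. These shares depend on the annotated lengths of the transcripts and on how reads matching several genes were counted. The percent of 50-base stretches found in other annotated genes was 57.1 for Psmb5 and 5.83 for Psmb8. It was 28.1 for Psmb7 and 0 for Psmb10, and 2.67 for Psmb6 and 12.5 for Psmb9. Its effect on the shares was not tested, and the shares are given without a test.

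**Figure D3:**
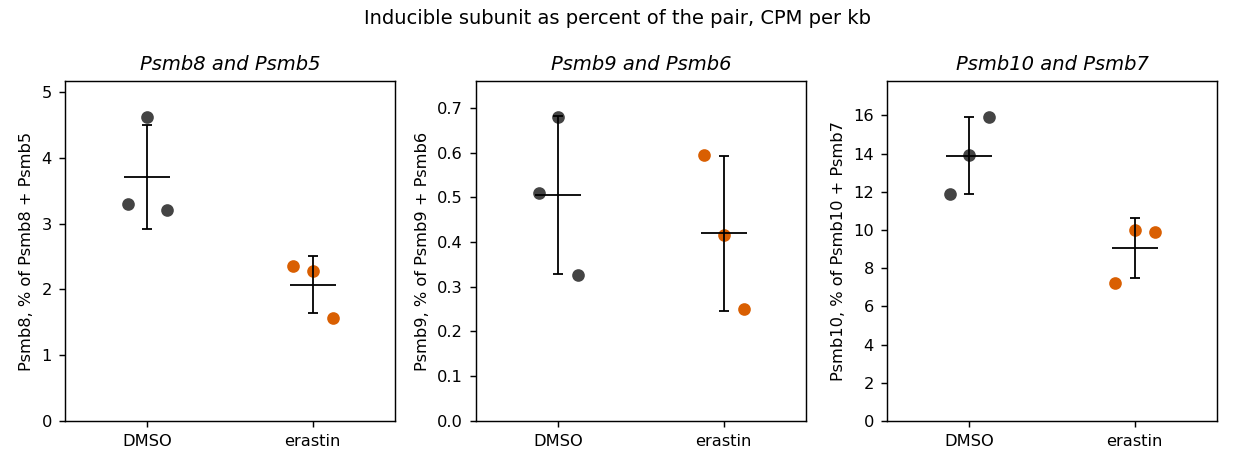
Share of the inducible subunit in each catalytic pair (percent of the pair's CPM per kb) by treatment, one panel per pair with its own axis starting at 0; points are libraries, wide bars are group means and whiskers are 1 SD (n = 3). For Psmb8 and Psmb10 the erastin libraries lie below the DMSO libraries, and for Psmb9 the groups overlap.

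Of the 3 chaperones that assemble the base of the 19S, 1 rose, beside 21.6% of all genes tested that passed as higher. Psmd9 had 39.8, 35.1 and 29.7 CPM with DMSO and 52.3, 60.0 and 52.8 CPM with erastin. All erastin libraries were above all DMSO libraries, with a log2 fold change of 0.66 (SE 0.12, adjusted p = 0.000346 by edgeR). In the annotation 25.5% of the exonic bases of Psmd9 overlap a gene on the opposite strand, and whether the counting used strand is not given. Psmd5 had 60.0, 57.0 and 63.3 CPM with DMSO and 47.5, 52.5 and 54.3 CPM with erastin. It was lower in every erastin library, with a log2 change of -0.22 (SE 0.09), and did not pass (edgeR adjusted p = 0.0691). It passed with upper-quartile scaling (edgeR adjusted p = 0.0271), with the offset for GC content and length (0.0204) and after thinning (0.0375). Psmd10, known as gankyrin, had 15.9, 12.0 and 16.3 CPM with DMSO and 18.02, 14.8 and 13.4 CPM with erastin, with overlapping groups and an interval of -0.31 to 0.46.

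The 5 assembly factors of the 20S core gave no call in either direction by edgeR, beside 43.1% of all genes tested that passed. At an unadjusted p under 0.05, 1 (Psmg4) was higher and none lower, and DESeq2 called the same gene as higher and none as lower. Pomp, the factor that guides the maturation of the core and is degraded as its first substrate, had 80.4, 70.5 and 62.3 CPM with DMSO and 67.4, 60.5 and 60.2 CPM with erastin. The groups overlapped, and the 95% interval of the log2 change was -0.40 to 0.04. Psmg4, a chaperone of the alpha ring, had 4.91, 8.81 and 3.42 CPM with DMSO and 7.64, 9.76 and 11.8 CPM with erastin. DMSO replicate 2 lay within the erastin range, and the log2 change of 0.75 (95% interval 0.09 to 1.40) did not pass (edgeR adjusted p = 0.0626). It passed with total-count scaling (edgeR adjusted p = 0.0397), without the filter (0.0137), with the replicate block (0.0372), with DESeq2 (0.0460) and with the offset for GC content and length (0.0147). Without DMSO replicate 2 Psmg4 passed with a log2 change of 1.22 (edgeR adjusted p = 0.00591), and Psmg3 with 0.70 (0.0255), and without DMSO replicate 3 Pomp passed as lower (0.0465). Psmg1 had 21.3, 21.2 and 18.1 CPM with DMSO and 17.6, 20.7 and 20.02 CPM with erastin, with an interval of -0.36 to 0.24, and Psmg2 and Psmg3 had log2 changes of 0.23 and 0.37 without passing.

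The alternative caps of the core, and the inhibitor, moved in different directions. Psme3, the nuclear activator, had 88.3, 88.2 and 83.3 CPM with DMSO and 137, 125 and 117 CPM with erastin. Its groups did not overlap, and it rose by 0.54 on the log2 scale (SE 0.08, adjusted p = 0.000107 by edgeR). Psme1 and Psme2 encode the 2 subunits of the interferon-inducible activator. Psme2 had 37.3, 29.2 and 31.8 CPM with DMSO and 21.3, 26.9 and 25.7 CPM with erastin, lower in every erastin library, and fell by 0.41 on the log2 scale (SE 0.13, adjusted p = 0.0232 by edgeR). Psme1 had 30.6, 33.0 and 39.3 CPM with DMSO and 26.1, 26.4 and 30.0 CPM with erastin. It too was lower in every erastin library, but its log2 change of -0.32 (SE 0.13) did not pass (edgeR adjusted p = 0.0537). It passed with upper-quartile scaling (edgeR adjusted p = 0.0259), with the filter of 1 CPM in 3 libraries (0.0493), and without DMSO replicate 1 (0.0363) or erastin replicate 3 (0.0406). The Psme2 call was lost with the offset for GC content and length (edgeR adjusted p = 0.0970) and without DMSO replicate 1 (0.116) or erastin replicate 1 (0.123).

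Psme2 shares 59.3% of its 50-base stretches with other annotated genes, and Psme2b, its near copy, 69.3%, so reads could be split between them. Psme2b had 3.78, 1.44 and 4.13 CPM with DMSO and 2.70, 2.45 and 2.44 CPM with erastin and did not pass. Psme4, a large activator that acts without ATP, had 122, 125 and 116 CPM with DMSO and 121, 123 and 126 CPM with erastin. The groups overlapped, and the interval of its log2 change was -0.13 to 0.19. Psmf1 (gene ENSMUSG00000032869.11, chr2:151715812-151744186), first described as an inhibitor of the core, had 28.5, 27.5 and 26.7 CPM with DMSO and 48.05, 49.0 and 43.9 CPM with erastin. All erastin libraries were well above all DMSO libraries, with a log2 fold change of 0.77 (SE 0.10, adjusted p = 3.14e-05 by edgeR).

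One gene matches the naming rule without being a proteasome gene. Psmc3ip, a factor of meiotic recombination, had 1.89, 3.66 and 4.75 CPM with DMSO and 1.91, 0.299 and 1.76 CPM with erastin, on 5 to 66 counts. Erastin replicate 2 was the lowest library and the groups overlapped, and the log2 change of -1.35 (SE 0.58) did not pass (edgeR adjusted p = 0.0721). It passed without the filter on low counts (edgeR adjusted p = 0.0242), with DESeq2 (0.0411), after thinning to the smallest library (0.0488) and without DMSO replicate 1 (0.0487).

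Levels can be compared between subunits only per length of transcript, so CPM was divided by the length of the principal transcript in kb. The 31 constitutive subunits, each present in the same number of copies within its own particle, did not have equal RNA levels. Within the 14 constitutive 20S subunits the mean level ran from 10.8 CPM per kb for Psma3 to 148 CPM per kb for Psmb6 with DMSO, and from 12.0 to 127 CPM per kb for the same genes with erastin. Psma3 and Psma2 have long annotated principal transcripts, which lowers a level per kb if the cells use a shorter form. Within the 17 19S subunits the mean level ran from 31.9 CPM per kb for Psmd11 to 198 CPM per kb for Psmd8 with DMSO, and from 35.4 CPM per kb for Psmd1 to 325 CPM per kb for Psmd8 with erastin. The standard deviation of log2 levels between subunits was 1.05 with DMSO and 0.99 with erastin in the 20S, and 0.66 and 0.70 in the 19S.

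Psmd8 was first in the order of levels per kb in both groups, followed by Psmb6, Psmb4 and Psma7. With DMSO, Psma7 (100.6 to 114 CPM per kb), Psmc3 (98.2 to 110.3) and Psmb2 (94.9 to 110.2) overlapped and had no clear order. With erastin, Psmb6 (121 to 138 CPM per kb), Psmb4 (112 to 135) and Psma7 (111 to 127) overlapped, Psmb2 (114 to 120.5) lay within the ranges of Psmb4 and Psma7, and these 4 had no clear order. Psmd11 and Psmc6 stood at ranks 28 and 27 of 31 with DMSO and at ranks 22 and 21 with erastin, at 31.9 and 32.7 CPM per kb with DMSO and 62.4 and 63.0 with erastin. Psmc1 went from rank 15 to rank 7, and Psmc3 from rank 5 to rank 10.

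**Figure D4:**
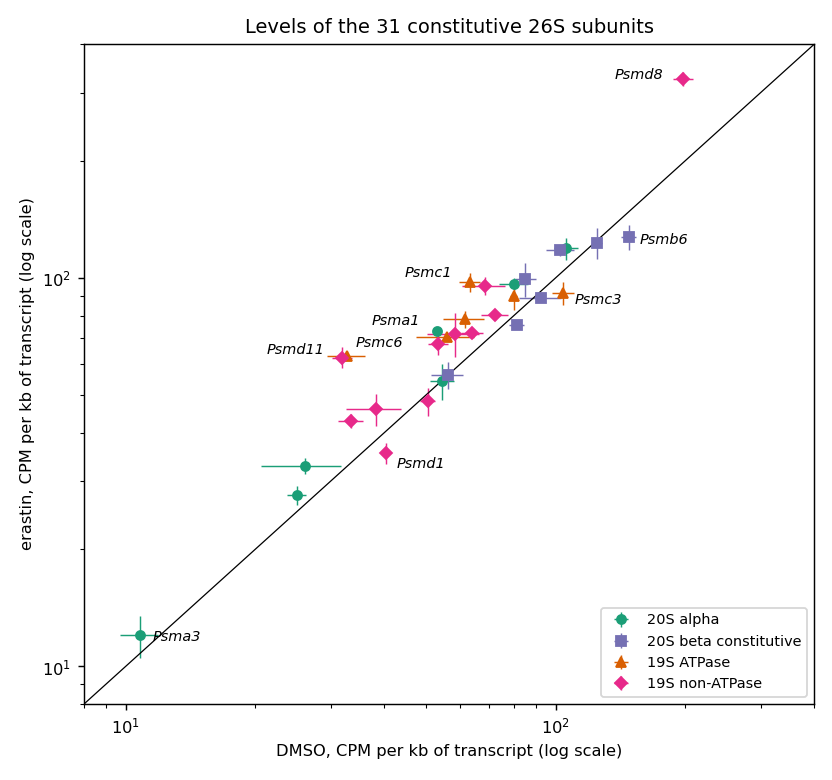
Mean CPM per kb of principal transcript with erastin (vertical, log axis) against DMSO (horizontal, log axis) for the 31 constitutive subunits, marked by role, with whiskers of 1 SD (n = 3) and a line of equal levels. Psmd8 is highest and Psma3 lowest in both groups, and Psmd11 and Psmc6 lie above the line, at 62.4 and 63.0 CPM per kb with erastin.

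Counting limits apply to some of these genes. Of the 51 genes, 16 share more than 10% of their 50-base stretches with another annotated gene, and 23 share none. The highest shares among tested constitutive subunits were 57.1% for Psmb5, 55.8% for Psmb3 and 55.4% for Psma5. Among the genes that rose, Psmd11 shares 18.9% and Psmc1 17.6%. How the counting treated reads that match several places is not given in the sources used here. In 10 genes more than 5% of the exonic bases overlap another annotated gene, among them Psmb8 (14.7%), Psmc3 (8.25%) and Psmb9 (5.79%, with Tap1).

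Around the proteasome, a list of 30 genes that supply, regulate or work with it held 14 that rose and 0 that fell by edgeR, with a median log2 change of 0.23. The 14 are 46.7% of the list, beside 21.6% of all genes tested as higher. Because the list was chosen with earlier results of these data known, this comparison is only a description. At an unadjusted p under 0.05, 16 were higher and 2 lower, DESeq2 called 14 higher and 0 lower, and without DMSO replicate 3 or erastin replicate 3 there were 2 lower. The RNA of Nfe2l1, the factor that drives the recovery of proteasome genes, had 413, 414 and 459 CPM with DMSO and 429, 399 and 436 CPM with erastin. The groups overlapped, with an interval of the log2 change from -0.18 to 0.13; this factor is controlled largely by processing of its protein, which RNA counts do not show. Ddi2, the protease that cuts and activates it, had 42.8, 48.3 and 47.3 CPM with DMSO and 51.4, 41.3 and 42.4 CPM with erastin, with an interval from -0.27 to 0.20. By contrast Nfe2l2, the oxidative stress factor, had 106, 103 and 101 CPM with DMSO and 204, 208 and 187 CPM with erastin and rose by 0.95 on the log2 scale (SE 0.08, adjusted p = 1.96e-07 by edgeR). All 3 erastin libraries were above all DMSO libraries.

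Zfand2a, a stress-induced zinc finger protein that associates with the proteasome, had 39.0, 33.2 and 25.1 CPM with DMSO and 182, 165 and 145 CPM with erastin. It rose 5.05-fold (log2 fold change 2.34, SE 0.13, adjusted p = 7.73e-09 by edgeR), the largest change of the list. Zfand5, a relative of it that activates the 26S proteasome, had 41.9, 46.6 and 38.1 CPM with DMSO and 80.3, 83.3 and 84.4 CPM with erastin and rose by 0.97 on the log2 scale (SE 0.10, adjusted p = 1.32e-06 by edgeR). Ubqln1, which shuttles ubiquitinated proteins to the proteasome, had 129, 137 and 131 CPM with DMSO and 193, 208 and 201 CPM with erastin and rose by 0.60 on the log2 scale (SE 0.07, adjusted p = 1.07e-05 by edgeR). In all 3 genes the groups were clearly apart.

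Ubb, a gene of ubiquitin itself, had 212, 215 and 212 CPM with DMSO and 239, 247 and 279 CPM with erastin and rose by 0.26 on the log2 scale (SE 0.08, adjusted p = 0.0130 by edgeR). All erastin libraries were above all DMSO libraries. The Ubb call was lost without erastin replicate 3 (edgeR adjusted p = 0.0549), and its log2 change was 0.41 with the offset for GC content and length.

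Usp14, a deubiquitinase that docks on the 19S, had 65.1, 60.6 and 54.0 CPM with DMSO and 85.0, 78.5 and 91.3 CPM with erastin and rose by 0.50 on the log2 scale (SE 0.10, adjusted p = 0.000662 by edgeR), or by 0.28 with the offset for GC content and length. All erastin libraries were above all DMSO libraries. Adrm1 and Sem1 are 19S subunits whose names fall outside the rule. Adrm1, a ubiquitin receptor, had 30.7, 31.6 and 41.4 CPM with DMSO and 37.0, 49.1 and 45.8 CPM with erastin, with overlap, and did not pass (log2 change 0.35, edgeR adjusted p = 0.0527). Sem1 had 79.3, 91.8 and 69.4 CPM with DMSO and 68.0, 59.9 and 85.9 CPM with erastin, with overlap and an interval from -0.45 to 0.11. Of 16 alternatives Adrm1 passed under 7, with a lowest edgeR adjusted p of 0.00531, and Sem1 under 1, as lower without erastin replicate 3 (0.0422).

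A further 7 companions that rose, named after their values were seen, had log2 changes of 0.85 for Pithd1, 0.77 for Akirin2, which brings proteasomes into the nucleus, 0.63 for Txnl1, a redox protein bound to the 19S, 0.56 for Uchl5, a deubiquitinase of the 19S, 0.52 for Ufd1, a cofactor of the Vcp segregase, 0.44 for Rad23b, a shuttle factor, and 0.41 for Ecpas, a proteasome adaptor. The edgeR call for Uchl5 was lost without DMSO replicate 1 (adjusted p = 0.0677), without erastin replicate 3 (0.0687) and with the offset for GC content and length (0.0751), and the offset brought Txnl1 to 0.42.

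**Figure D5:**
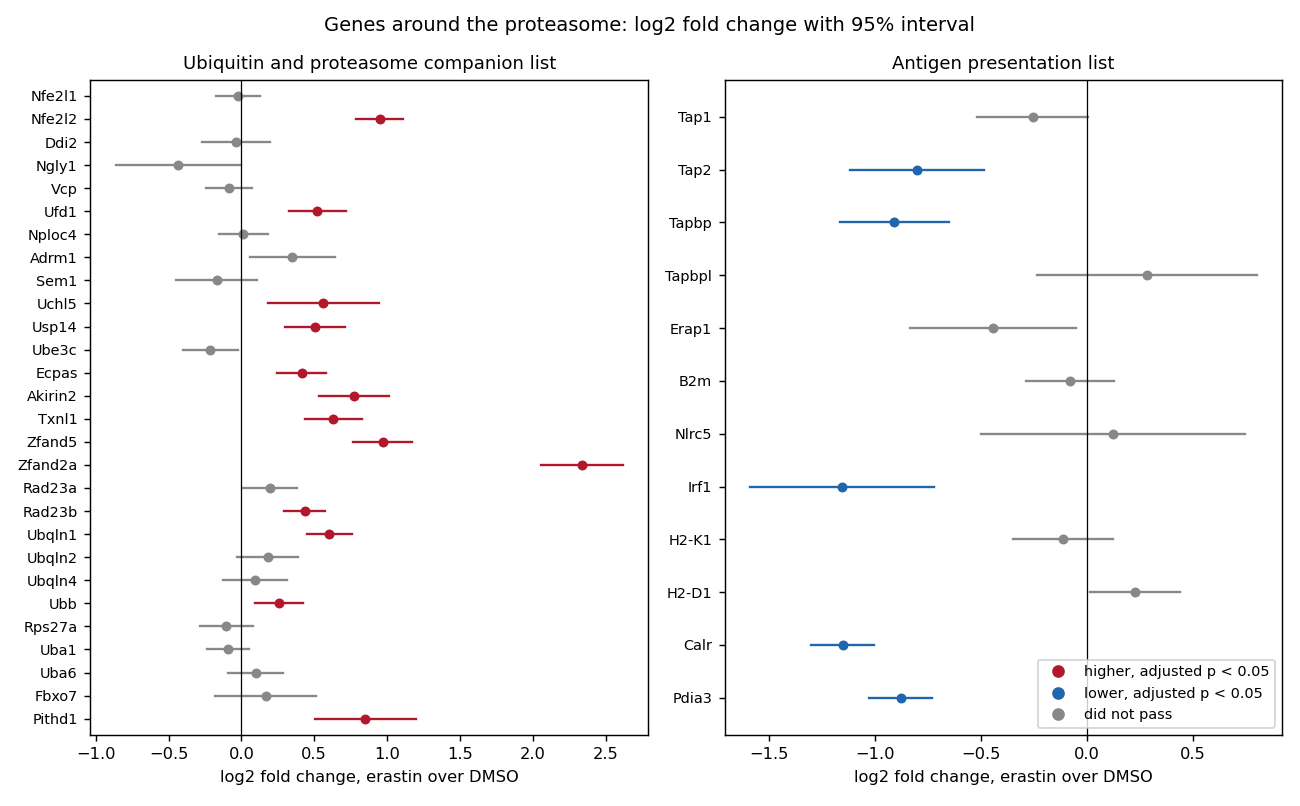
Log2 fold change (erastin over DMSO) with its 95% interval for genes of the companion list (left) and of the antigen presentation list (right), with called genes in colour. Zfand2a at 2.34 is the farthest to the right of the companions, and the called antigen presentation genes shown lie to the left of 0.

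The inducible subunits feed peptides into antigen presentation, and a list of 13 genes of that route held 6 that fell and 0 that rose by edgeR, with a median log2 change of -0.44. The 6 are 46.2% of the list, beside 21.5% of all genes tested as lower. This list too was chosen with earlier results of these data known, so the comparison is only a description. At an unadjusted p under 0.05, 1 was higher and 7 lower, DESeq2 called 6 lower and 0 higher, and without DMSO replicate 2 there was 1 higher. Calr had 1109, 962 and 1009 CPM with DMSO and 459, 455 and 470.0 CPM with erastin and fell by 1.15 on the log2 scale (SE 0.07, adjusted p = 1.39e-08 by edgeR). Pdia3 had 774, 823 and 737 CPM with DMSO and 430.2, 439 and 401 CPM with erastin and fell by 0.88 (SE 0.07, adjusted p = 1.77e-07 by edgeR). Both are general folding factors of the endoplasmic reticulum that also serve in loading peptides. Tapbp, the tapasin gene and specific to peptide loading, had 69.5, 75.3 and 81.6 CPM with DMSO and 34.5, 48.4 and 37.9 CPM with erastin and fell by 0.91 (SE 0.12, adjusted p = 2.46e-05 by edgeR). In all 3 the erastin libraries lay below the DMSO libraries.

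Also lower, and named after their values were seen, were Tap2, a peptide transporter subunit, and Irf1, a transcription factor of the interferon response. Their log2 changes were -0.80 (SE 0.15, edgeR adjusted p = 0.000486) and -1.15 (SE 0.20, edgeR adjusted p = 0.000341). Tap1, Erap1, Tapbpl and Nlrc5, also named after their values were seen, did not pass. They had log2 changes of -0.26, -0.44, 0.28 and 0.12, with edgeR adjusted p of 0.107, 0.0654, 0.375 and 0.766. Under the 16 alternatives Erap1 passed as lower in 5, Tap1 as lower in 1, and Tapbpl and Nlrc5 in 0. The class I genes themselves did not pass: H2-K1 had a log2 change of -0.11, H2-D1 of 0.23 and B2m of -0.08, with edgeR adjusted p of 0.451, 0.0813 and 0.537. H2-D1 passed as higher under 6 of 16 alternatives, with a lowest edgeR adjusted p of 0.00131, and H2-K1 and B2m under 0.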

How the data were processed

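The deposited table holds raw read counts per gene, whole numbers with no normalization, 1 column per library, per the file headers; 0 columns were left unused. The submitters' processing notes name the build mm10, HTSeq 0.9.1 and SAMtools; the annotation, strand setting and treatment of multiply matching reads are not given in the sources used here. Total RNA was depleted of ribosomal RNA, fragmented and sequenced on an Ion Proton, per the labels' protocols.

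Identifiers were matched without version to GENCODE M21, which gave a symbol for 42462 of 43346 (98.0%). Counts were tested with edgeR 4.0.16 in R 4.3.3: filterByExpr defaults (a count of 10 in 3 libraries, scaled by library size, and a total of 15) kept 14000 genes, libraries were scaled by TMM, and glmQLFit and glmQLFTest compared 3 erastin with 3 DMSO libraries and held no term besides treatment. P-values were adjusted by the Benjamini-Hochberg method across the 14000 genes, and a gene was called at an adjusted p under 0.05. Intervals are 95%. DESeq2 1.42.0 and mgcv 1.9.3 (smooth of log ratio on GC content and length) served the alternatives. These were other scalings, filters and threshold, a replicate block, DESeq2, a GC and length offset, thinning to the smallest library, and leaving out each library. Besides DESeq2 they were all edgeR fits, and limma 3.58.1 was loaded without a limma fit being run. The fit was tested on simulated data. Libraries of 1 group differed beyond counting noise (chi-square per degree of freedom 11.0 to 19.2), so none was a duplicate deposit. Levels per kb use the APPRIS principal transcript.

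The genes, lists and rules were chosen with earlier results of these data known. Values in every library are given for the catalytic subunits, Psmd4, Psmd14, Pomp, Psme1 to Psme4, Psmf1 and, per role, the 2 genes with the smallest and the 1 with the largest p; for the companion list for set genes and the 4 with the smallest p, and for antigen presentation the 3 with the smallest p. Values for Psmc3, Psmd6, Psme2b and Psmc3ip were added after they were seen. Some genes of the lists are counted but not reported here by name.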

Additional observations from a re-analysis of the deposited data

How the results depend on the processing

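Of the 18 proteasome genes called, 13 were called under every alternative run; Psma6, Psmd6, Psmc2, Psmb6 and Psme2 lost the call under at least 1. Of the 31 not called, 14 were never called. Counts of higher and lower genes that moved by over 1.5 times are given here by setting; the cause was not tested. Total-count scaling gave 23 proteasome genes higher, 5 of the 20S higher and 1 of the 20S lower, and 1 antigen presentation gene higher. Upper-quartile scaling gave 7 proteasome genes lower, 1 20S gene higher, 3 19S genes and 2 others lower, and 1 companion gene lower. DESeq2 gave 5 lower, 2 of them 19S, as did thinning to the smallest library. Without the filter 1 gene each was lower in the 20S, the 19S and the companions, and 1 antigen presentation gene was higher. The filter of 1 CPM gave 2 others lower. The GC and length offset, with and without the block, gave 6 20S genes higher, 2 19S genes, 0 others and 2 companions lower, and 1 antigen presentation gene higher. At an adjusted p of 0.01, 1 proteasome gene was lower (a 20S gene), 1 20S gene higher and 0 others lower. With 1 library left out the ranges were 1 to 5 proteasome genes lower, 1 to 3 20S genes higher and 1 to 2 lower, 0 to 1 19S genes lower, 2 to 4 others higher and 0 to 2 lower, 0 to 2 companions lower and 0 to 1 antigen presentation genes higher.

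Among all genes the share of calls that were higher was 50.2%, 44.0% with upper-quartile and 57.1% with total-count scaling. Titles share replicate numbers, but same-numbered libraries did not deviate together (mean correlation 0.013, against -0.0063 for different numbers; 3 of 6 libraries correlated best with their own number). With the replicate block 19 proteasome genes were called, 17 of them in common with the 18, with 1 20S gene lower and 1 antigen presentation gene higher.

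Changes of sign occurred in 9 of 49 proteasome genes, 4 of 30 companions and 3 of 13 antigen presentation genes, with 0 of them called. With total-count scaling the log2 change was 0.0581 for Psma4, 0.00431 for Psmb1, 0.0431 for Psmb4, 0.00331 for Psmg1, 0.0421 for Nfe2l1 and 0.0324 for Ddi2. With upper-quartile scaling it was -0.0511 for Psmb5, -0.0251 for Psme4 and -0.0395 for Nploc4. Without the filter it was 0.0118 for Psma4. After thinning it was 0.00362 for Psma4 and -0.0164 for Psmb5. With the GC and length offset, and with the offset and the block, it was -0.0393 and -0.0367 for Psma2, 0.0907 and 0.0894 for Psmb4, 0.0415 and 0.0379 for Psmd13, 0.0392 and 0.0385 for Psmg1, -0.0900 and -0.0896 for Psme4, 0.0495 and 0.0476 for Nfe2l1, -0.170 and -0.172 for Uba6, and 0.0206 and 0.0173 for H2-K1. With 1 library left out the log2 change ran from -0.0598 to 0.0751 for Psma4, -0.0901 to 0.044 for Psmb4, -0.0668 to 0.068 for Psmb5, -0.0608 to 0.166 for Psmd10, -0.134 to 0.00744 for Psmg1, -0.00403 to 0.0571 for Psme4, -0.0507 to 0.026 for Nfe2l1, -0.143 to 0.0229 for Ddi2, -0.0166 to 0.0564 for Nploc4, -0.178 to 0.0357 for B2m and -0.133 to 0.391 for Nlrc5. Depth limits Psmb9, Psmb8, Psme2b and Psmc3ip, tested on 8 to 25, 29 to 72, 26 to 58 and 5 to 66 counts per library. It also limits Psma8 and Psmb11, which were not tested.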
